A study of Rattus norvegicus with 2 samples.

Results

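The cytochrome P450 genes of rat liver that lie outside the fat and sterol pathways were compared between a low-fat and a high-fat diet. Members were all probe sets whose single gene symbol in the platform annotation is Cyp followed by a digit, without the Cyp4a genes, Cyp7a1, Cyp7b1, Cyp8b1, Cyp27a1 and Cyp51. This gave 47 probe sets for 45 genes, of 10411 genes with a single symbol on the array. Total liver RNA of SD rats, 1 sample per diet, had been profiled on 1 oligonucleotide array each. The rats were 4 weeks old and were fed for 9 weeks on a purified AIN93G-based food in its low-fat or its high-fat form. No genotype, surgery or drug is named for either group, and neither the sex of the rats nor the number pooled into each RNA was given in the sources used here. With 1 array per diet there is no replicate check, no error of a mean and no p-value, so each difference describes these arrays alone.

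P450 enzymes are heme proteins of the endoplasmic reticulum and mitochondria that insert an oxygen atom into their substrates. Families CYP1, CYP2 and CYP3 clear most drugs, plant compounds and pollutants in the liver and also hydroxylate steroids, while several CYP4 enzymes act on fatty acids and eicosanoids. The microsomal enzymes take their electrons from the reductase Por and from cytochrome b5, and many of their genes are switched on by the receptors Nr1i2 (PXR), Nr1i3 (CAR) and Ahr. In rats several CYP2 and CYP3 genes are also set by sex, through the rhythm of growth hormone secretion.

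Of the 45 genes, 29 were measured, meaning that the average of their log2 signals was at or above the average of the floors. The floor is an array's median signal, 15.7 for low-fat and 14 for high-fat, in the arbitrary units of the deposited intensities. The other 16 lay below the floor on both arrays. For each gene a log2 ratio (high-fat over low-fat) was taken from its probe set with the highest mean signal and centred on the median of all measured probe sets, which was -0.12 before centring. Most measured P450 genes sat slightly higher on the high-fat array, and none of the 29 was 2-fold different in either direction, where 0.848% of all 6012 measured genes were past 2-fold on the higher side and 0.865% on the lower side. The median log2 ratio of the 29 was 0.17 and their mean was 0.07, while the median over all 6012 genes was -0.0002. The 95% order-statistic interval of that P450 median across members was 0.02 to 0.21, and it included 0 under 8 of 11 alternatives. This and the later intervals across members treat genes as independent, which paralogues need not be. They do not measure variation between rats, so an interval without 0 is no test of the diet. By sign, 22 members were higher (background 50%) and 7 were lower (background 50%). That split was 16 higher and 13 lower without centring, where 33.2% of all genes were higher. It was 18 and 11 with centring on hybridization controls (41.8% of all genes higher) and 19 and 10 with quantile normalization (49.4%). Over all genes the median was -0.12 without centring and -0.06 with hybridization controls, so 0 is not their centre there.

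The small upward shift lay among members with a strong signal. At a mean signal of 500 or more, 15 of 16 members were higher, where 65.6% of all 448 such genes were, with medians of 0.21 and 0.08. Below 500, 7 of 13 members were higher, where 48.7% of all such genes were, with medians of 0.01 and -0.01. The ratio of bright probe sets was higher in general, and the P450 median was 0.09 once a loess fit of that trend had been subtracted. Hepatocyte markers had a median of 0.15, with all 9 measured of 10 (among them Alb, Apob and Ttr) above 0. Their summed signal, as deposited and without centring, was 34944 for low-fat and 35784 for high-fat. Whether the P450 shift follows the amount of hepatocyte RNA was not tested, and in whole tissue fewer cells of a type and less RNA per cell cannot be told apart.

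**Figure D1:**
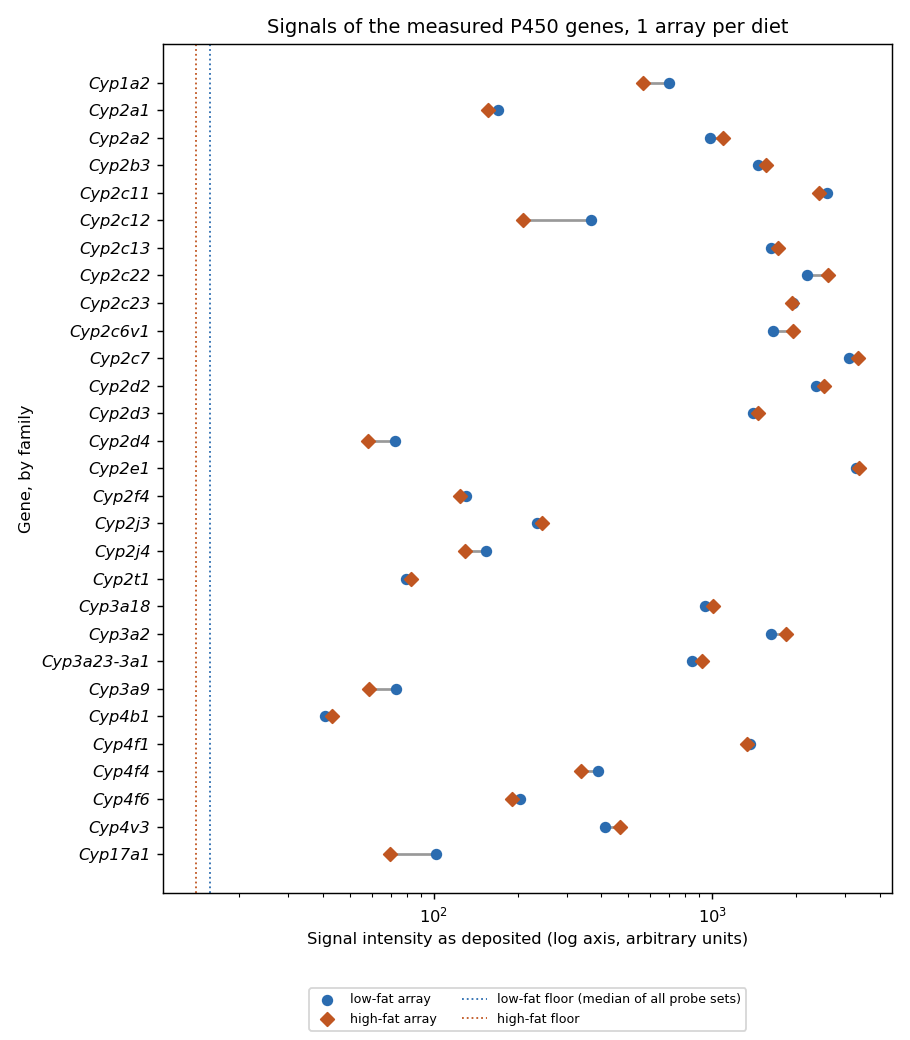
Deposited signal intensity (log axis, arbitrary units) of the 29 measured P450 genes on the low-fat array (circles) and the high-fat array (diamonds), 1 array each, with the floors of 15.7 and 14 as dotted lines. Most pairs nearly coincide, and the widest gap is that of Cyp2c12, at 365.4 and 209.4; positions of different genes on the axis cannot be compared, since each probe set has its own response.

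Subfamily CYP2C held the member with the lowest ratio and those with the highest. Cyp2c12, the female-specific steroid sulfate hydroxylase of adult rat liver, had a signal of 365.4 with the low-fat diet and 209.4 with the high-fat diet. This was 1.61-fold lower (log2 ratio -0.69) and put it 3.03 robust SD below the median of its signal bin, 1 of 10 equal bins of all measured probe sets (the robust SD is the scaled median absolute deviation of their ratios). Of the 29 members only Cyp2c12 was at least 1.5-fold lower (background 5.44%), and none was at least 1.5-fold higher (background 4.22%). It was also the only member more than 2 robust SD below the median of its signal bin (background 3.91%), and none was that far above (background 3.74%). A single such gene among 29 is 3.45%, near the background share.

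The other 6 CYP2C genes were level or higher on the high-fat array. Cyp2c22, a male-dominant enzyme, went from 2187.6 to 2616 (log2 ratio 0.37), the highest ratio of all members. Cyp2c6v1, a constitutive form that phenobarbital can induce, went from 1648.5 to 1948.1 (0.36). Cyp2c7, a retinoic acid hydroxylase that is more abundant in females, went from 3105.6 to 3347.2 (0.22). All 3 lay less than 2 robust SD above the median of their signal bin. Cyp2c13, a male-specific steroid hydroxylase, was at 1632.7 and 1716.3 (0.19). Cyp2c23, an arachidonic acid epoxygenase, was at 1956.6 and 1931.8 (0.10), and Cyp2c11, the male-specific testosterone hydroxylase, at 2595.5 and 2419 (0.02). The sign of Cyp2c23 and of Cyp2c11 flipped without centring and with quantile normalization, and for Cyp2c11 also under 3 other settings, so neither has a direction here. CYP2C genes are close in sequence, and the probe set of Cyp2c13 is of the kind whose name marks shared sequence, so signal from a paralogue cannot be told apart from the gene's own.

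Cyp2c12 and Cyp2c13 follow each other in the RefSeq order of protein-coding genes (assembly GRCr8), and their ratios of -0.69 and 0.19 had opposite signs. The 250 bases before the RefSeq start of both are shown to set these neighbours side by side, with those of Cyp2c7, a female-dominant gene, and Cyp2c11, a male-dominant gene of the same subfamily. They come from the RefSeq promoter table of build GRCr8, which matched 36 of the 45 members and 24 of the 29 measured ones. Each is written 5′ to 3′ on the strand of its gene: Cyp2c12 at chr1:248677035-248677284 and Cyp2c13 at chr1:248787189-248787438, both on the minus strand, and Cyp2c7 at chr1:247966144-247966393 and Cyp2c11 at chr1:246174966-246175215, both on the plus strand. Capitals mark any of the letters TATAAA (the core promoter box), ATCAAT (core of Onecut sites), AGGTCA (nuclear receptor half-site), GTTAAT (HNF1 half-site) and TGTTTAC (forkhead core). Both strands were searched, and a match on the other strand appears as the reverse complement.
Cyp2c12: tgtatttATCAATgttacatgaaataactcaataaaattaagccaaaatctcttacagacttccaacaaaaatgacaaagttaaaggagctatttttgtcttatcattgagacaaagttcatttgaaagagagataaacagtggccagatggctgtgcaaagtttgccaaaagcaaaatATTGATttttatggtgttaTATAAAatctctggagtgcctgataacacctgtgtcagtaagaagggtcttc
Cyp2c13: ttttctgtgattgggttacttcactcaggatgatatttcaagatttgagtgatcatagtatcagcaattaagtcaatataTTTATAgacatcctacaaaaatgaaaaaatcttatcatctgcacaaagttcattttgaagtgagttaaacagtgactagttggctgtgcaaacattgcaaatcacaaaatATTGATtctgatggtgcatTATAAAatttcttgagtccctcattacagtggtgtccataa
Cyp2c7: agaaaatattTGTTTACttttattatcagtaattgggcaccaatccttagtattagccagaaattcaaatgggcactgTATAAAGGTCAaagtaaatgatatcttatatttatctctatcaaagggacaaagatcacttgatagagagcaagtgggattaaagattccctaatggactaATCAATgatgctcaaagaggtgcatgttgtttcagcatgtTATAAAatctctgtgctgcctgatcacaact
Cyp2c11: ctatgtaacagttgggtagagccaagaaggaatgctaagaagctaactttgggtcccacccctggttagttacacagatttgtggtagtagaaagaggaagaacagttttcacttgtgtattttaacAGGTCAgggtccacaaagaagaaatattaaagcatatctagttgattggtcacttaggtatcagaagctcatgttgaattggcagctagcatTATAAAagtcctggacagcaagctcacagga

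All 4 sequences hold TATAAA within 52 bases of the annotated start, and 9 of the 24 matched measured members hold it, against 12.9% of all 33469 promoters of the table. The Onecut core lies 71 to 66 bases before the start in Cyp2c12 and 60 to 55 bases before it in Cyp2c13. Both of these copies are on the other strand, upstream of TATAAA at 52 to 47 and 41 to 36 bases. Cyp2c12 has a second copy 243 to 238 bases before the start, on the strand of the gene. In Cyp2c7 the core lies 71 to 66 bases before the start, on the strand of the gene, with TATAAA at 31 to 26 bases. Positions count from each annotated start, so equal numbers need not mark aligned bases. The 250 bases of Cyp2c11 do not hold the Onecut core. Over the measured members 5 of 24 hold it (Cyp1a2, Cyp2c12, Cyp2c13, Cyp2c7 and Cyp4f1), against 7.10% of all promoters. Cyp2c12, Cyp2c13 and Cyp2c7 are paralogues whose promoters are 67.0 to 77.3% identical over aligned bases. These carriers are therefore not independent, and the count is no measure of enrichment. AGGTCA was found in 7 of 24 members, among them Cyp2c11, Cyp2c7, Cyp2e1, Cyp3a2 and Cyp3a23-3a1, against 14.1% of all promoters. In Cyp2c7 it overlaps a TATAAA by 1 base, so those capitals run together. GTTAAT was found in 2 of 24 (6.45% of all promoters) and TGTTTAC in 4 of 24 (3.21%). Over the aligned bases the promoter of Cyp2c12 was 77.3% identical to that of Cyp2c13, 69.9% to that of Cyp2c7 and 58.3% to that of Cyp2c11. The carriers of the Onecut core had ratios on both sides of 0, from -0.69 for Cyp2c12 to 0.22 for Cyp2c7. A match of letters is a description and no evidence of binding.

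The P450 genes that differ between the sexes in adult rats were also grouped by the sex in which they dominate. The 5 male-dominant genes Cyp2c11, Cyp2c13, Cyp2c22, Cyp2a2 and Cyp3a2 were all above 0, with a median of 0.27 and a range of 0.02 to 0.37, but Cyp2c11 was at -0.10 without centring. All 5 had a mean signal of 500 or more, where 65.6% of all genes were higher. The 4 female-dominant genes went both ways, with a median of -0.10: Cyp2c12 and Cyp3a9 were lower, Cyp2c7 was higher and Cyp2a1 was at 0.005. All 9 were above the floor on both arrays, at different signals. The male-dominant genes ran from 981.4 to 2595.5 for low-fat and from 1092.4 to 2616 for high-fat. The female-dominant genes ran from 73.1 to 3105.6 and from 58.2 to 3347.2, with Cyp3a9 the dimmest and Cyp2c7 the brightest. Each probe set has its own response, so these signals do not rank the genes by amount. Of 9 sex-dependent liver genes outside the P450 family on the array, A1bg, Sult2a1 and Sult2a2 were below the floor on both arrays. Their low-fat and high-fat signals were 2.1 and 4.9, 5.3 and 0.1, and 4.8 and 1.7. Of the 6 measured, 3 were higher (background 50%), with a median of 0.04. The highest was Obp3, a male-dominant urinary carrier protein, which went from 591.6 to 830.8 (0.61), with 0.62 on another probe set.

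Among the members of CYP2A, CYP2B and CYP2D, no gene was 1.5-fold different on the probe set that stands for it. Cyp2a2, a male-dominant testosterone hydroxylase, was at 981.4 and 1092.4 (0.27). Cyp2a1, which hydroxylates testosterone at another position, was at 169.4 and 156.8, a centred ratio of 0.005 whose sign flipped under 6 of 11 settings. Cyp2b3, the measured member of CYP2B, was at 1463 and 1564.4 (0.21). A probe set listed with several CYP2B symbols, and so no member, went from 192.7 to 118 (-0.59), 2.74 robust SD below the median of its signal bin. In the debrisoquine-oxidising subfamily CYP2D, Cyp2d2 was at 2360.9 and 2528.4 (0.22) and its neighbour Cyp2d3 at 1404.1 and 1455.6 (0.17). Cyp2d4, the form known from brain, was lower on both of its probe sets. The first went from 72.2 to 57.8 (-0.20) and the second from 32.7 to 16 (-0.91, 2.10 robust SD below the median of its bin), so the probe sets have the same sign and very different sizes. With the median over probe sets the value of Cyp2d4 was -0.56.

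The remaining CYP2 genes had ratios between -0.13 and 0.19. Cyp2e1, which oxidises ethanol, acetone and acetaminophen, had signals of 3280.4 and 3377 (0.16). The arachidonic acid epoxygenases of subfamily CYP2J took opposite signs, with Cyp2j3 at 234.4 and 244.6 (0.18) and Cyp2j4 at 153.8 and 129.4 (-0.13). Cyp2f4, an enzyme that activates naphthalene, was at 130.1 and 124 (0.05), and its sign flipped without centring and with centring on hybridization controls. Cyp2t1 was at 79.1 and 83 (0.19). Over the whole of family CYP2, 15 of 18 measured genes were higher (background 50%), with a median of 0.17. Many of them are bright, and at a mean signal of 500 or more 65.6% of all genes were higher. The family median was 0.07 with quantile normalization and 0.10 with loess. Its intervals across members there, -0.01 to 0.16 and -0.0009 to 0.17, included 0.

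Family CYP3 enzymes metabolise the widest range of drugs and hydroxylate testosterone and bile acids. Of its 4 measured genes 3 were higher (background 50%), with a median of 0.23. The 3 higher genes had a mean signal of 500 or more, where 65.6% of all genes were higher. Cyp3a2, male-dominant in adult rats, went from 1631 to 1837.6 (0.29). Cyp3a23-3a1, the form induced by dexamethasone through Nr1i2, went from 845.6 to 919.2 (0.24), and Cyp3a18 from 940.8 to 1005.9 (0.21). Cyp3a9, female-dominant, was the member on the other side, at 73.1 and 58.2 (-0.21).

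Family CYP4 outside the Cyp4a genes was near the centre, with 4 of 5 measured genes higher (background 50%). Its median was 0.08, and -0.04 without centring. Cyp4f1, Cyp4f4 and Cyp4f6 belong to the subfamily that inactivates leukotriene B4 by oxidising its end carbon. Cyp4f1 was at 1369.9 and 1336.8 (0.08, and -0.04 without centring), Cyp4f4 at 388.7 and 338 (-0.08) and Cyp4f6 at 203.1 and 190.8 (0.03, negative under 3 settings). Cyp4v3, a fatty acid hydroxylase, went from 412.5 to 464.9 (0.29), and its second probe set was below the floor, at 6.9 and 10. Cyp4b1, better known from lung, was at 40.7 and 42.9 (0.19).

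Families CYP1 and CYP17 had 1 measured gene each, both lower. Cyp1a2, the liver enzyme of caffeine metabolism, was at 698.6 and 561.9 (-0.20). It was the only member with a mean signal of 500 or more that was lower. Cyp17a1, the steroid 17-alpha-hydroxylase of androgen synthesis, went from 101.4 to 69.7, which was 1.34-fold lower (-0.42) and 1.89 robust SD below its signal bin. Over the 11 alternatives Cyp1a2 was between -0.31 and -0.15 and Cyp17a1 between -0.54 and -0.28. Several alternatives only shift all ratios by a common amount, so the kept signs say little.

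**Figure D2:**
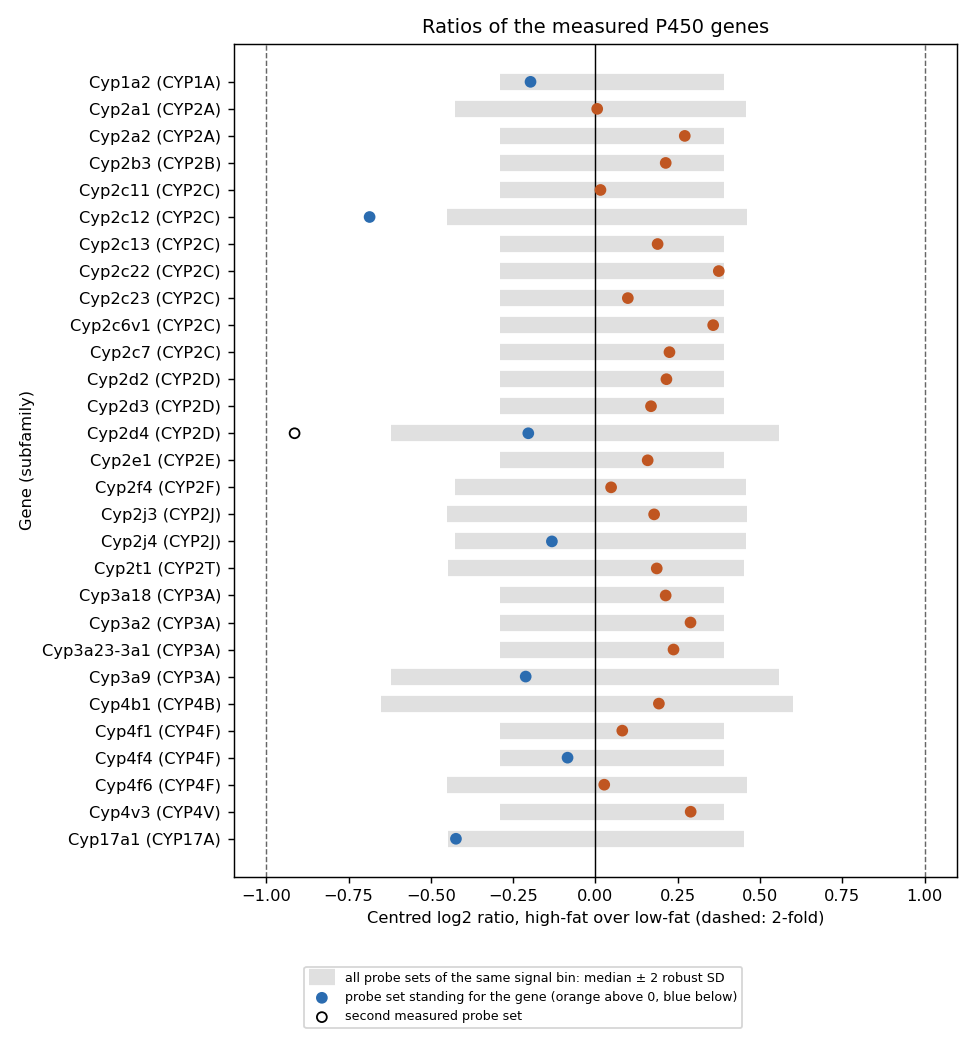
Centred log2 ratio (high-fat over low-fat) for the 29 measured P450 genes, with their subfamily; filled points are the probe set that stands for the gene, the open point is the second probe set of Cyp2d4, and grey bars give the median ± 2 robust SD of all probe sets in the same of 10 signal bins as the filled point. Only the filled point of Cyp2c12, at -0.69, lies outside its bar, and no point reaches the dashed lines at 2-fold.

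The 16 genes below the floor are mostly forms known from other organs or from induced liver. Their signals ran from 0.4 to 14.6 for low-fat and from 0.3 to 10.2 for high-fat, and no fold is given for them. The steroid synthesis genes Cyp11a1, Cyp11b1, Cyp19a1 and Cyp21a1, of adrenal and gonad, were between 0.4 and 3.2 and between 0.9 and 4.2. Cyp1a1, the classical target of Ahr, was at 1.4 and 3.4, and its relative Cyp1b1 at 14.6 and 10.2. The CYP2 genes Cyp2a3, Cyp2b12, Cyp2b21, Cyp2g1 and Cyp2s1, several of them known from nose, lung or skin, had signals of 2.9 to 8.5 and 0.3 to 6.3. Cyp4f5 and Cyp4f17 were at 1.3 to 4.8 over both arrays. The retinoic acid hydroxylases Cyp26a1 and Cyp26b1 and the vitamin D activating enzyme Cyp27b1 were between 5.4 and 13.8 for low-fat and between 4.1 and 7.5 for high-fat. A signal under the floor does not show that a gene was silent.

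Genes that stand next to each other were compared by sign. Of 14 pairs of members adjacent in the RefSeq gene order, 10 had both genes measured, and 8 of these pairs shared a sign, with Cyp2c12 and Cyp2c13 and Cyp2j4 and Cyp2j3 as the exceptions. Only 5 pairs did so without centring and 4 with centring on hybridization controls, so the count follows the scaling, and with 22 of 29 members above 0 many pairs must share a sign. Adjacent P450 genes are paralogues whose probe sets may detect each other's transcripts, so the pairs are not independent.

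The genes that supply P450 enzymes with electrons were near the centre except for Por. Por, the flavoprotein that passes electrons from NADPH to all microsomal P450 enzymes, went from 831.4 to 369.8 and from 547.2 to 223.4 on its 2 probe sets. These are 2.07- and 2.26-fold lower signals on the high-fat array (log2 ratios -1.05 and -1.18). Of all measured genes 0.865% were at least 2-fold lower. None of the 29 P450 members was, which is near that share. The first probe set of Por stayed at least 2-fold lower under all 11 alternatives. Of the 6 measured electron donors 4 were higher and 2 lower (background 50% each), with a median of 0.01. Pgrmc1, a heme-binding partner of P450 enzymes, and Fdx1, the electron carrier of the mitochondrial forms, were at 0.20 and 0.19. Cytochrome b5 genes stayed at 0.004 (Cyb5a) and 0.02 (Cyb5b), with signs that flipped without centring.

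Heme supply genes went both ways, with 2 of 7 above 0 and 5 below it (background 50% each), and a median of -0.02. Alas1, the rate-controlling enzyme of heme synthesis in liver, went from 506 to 382 (-0.29). Blvra, a biliverdin reductase of heme breakdown, was the highest at 0.54, with signals of 22 and 29.6 near the floor. Heme oxygenase Hmox1 was at -0.002.

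Receptors and transcription factors of P450 genes were lower in 10 of 11 measured members (background 50%), with a median of -0.12 and an interval across members of -0.64 to -0.0004, which included 0 under 4 of 11 alternatives. Among the 10, Nr1h4 at -0.0004 and Foxa2 at -0.008 changed sign under 4 and 3 alternatives. Onecut1 (HNF6), a liver factor known to activate Cyp2c12 under growth hormone, went from 225.4 to 121.7, 1.71-fold lower (-0.77). Its second probe set went from 40.9 to 23.4 (-0.69), beside -0.69 for Cyp2c12. A link between these values was not tested. Nr1i2, the pregnane X receptor that controls CYP3A genes, went from 206.8 to 122.8 (-0.64), while Cyp3a23-3a1 and Cyp3a2 were at 0.24 and 0.29. Nr1i3, the constitutive androstane receptor, was at 108.9 and 95.6 (-0.07). Hnf4a, a main driver of hepatocyte genes, was the member above 0, at 0.15, while its other probe set gave -0.02. Ahr, Arnt, Cux2, Ppara and Stat5b were not measured.

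Targets of these receptors outside the P450 family had no common direction. Among those of Nr1i2 and Nr1i3, 3 of 5 were higher (background 50%), with a median of 0.02. Ugt2b1, a glucuronosyltransferase, went from 224.9 to 97.5, 2.13-fold lower (-1.09), but was at -0.84, under 2-fold, with a pseudocount of 50. Aldh1a1, an aldehyde dehydrogenase, went from 167.3 to 241.9 (0.65). Of the targets of Ahr, Nqo1 was at 0.32 and Tiparp at -0.16.

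**Figure D3:**
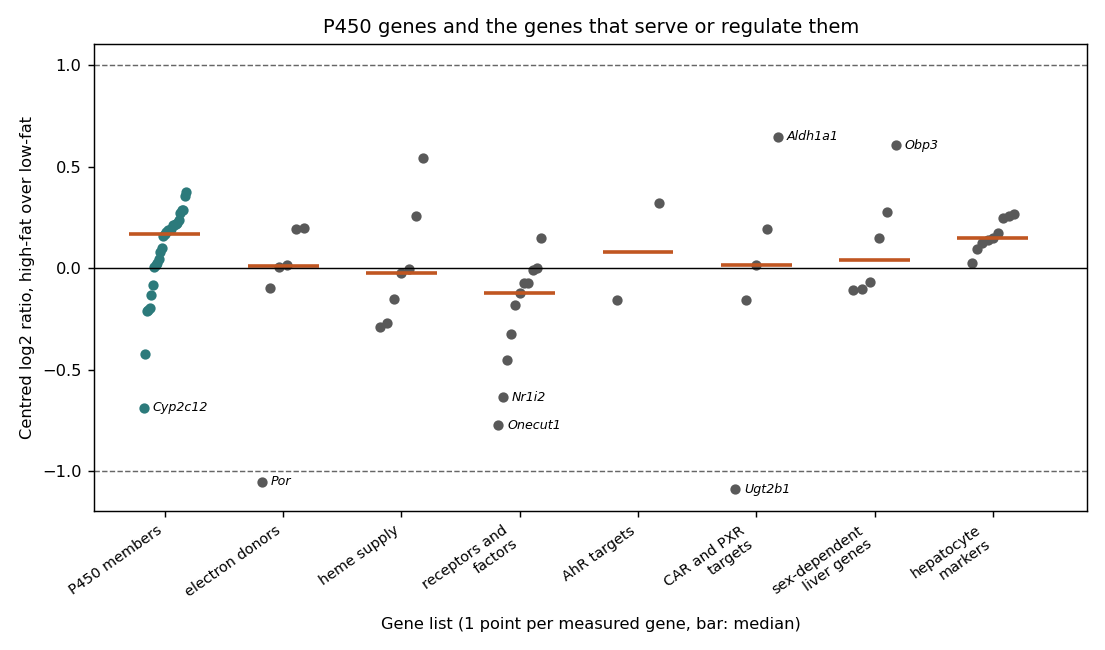
Centred log2 ratio (high-fat over low-fat) for each measured gene (points) and the list median (bar), for the P450 members, 6 lists of genes that serve, regulate or share regulators with them, and hepatocyte markers; AhR, CAR and PXR are the receptors of Ahr, Nr1i3 and Nr1i2. The P450 points lie between -0.69 and 0.37, while Por at -1.05 and Ugt2b1 at -1.09 lie past the lower dashed line at 2-fold.

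Markers of position in the liver lobule and of other cell types were set beside these values. Over all measured genes 50% were higher and 50% lower. Ratios and counts are centred, while summed signals are as deposited, where the median ratio of all measured probe sets was -0.12. Many P450 genes are strongest near the central vein, and the 2 measured pericentral markers, Glul and Oat, were at 0.30 and 0.24, with summed signals of 799.3 and 881.8. The other probe sets of Glul were at -0.12 and 0.06, and Axin2 and Slc1a2 were not measured. Of 7 periportal markers 5 were lower, among them Arg1 at -0.004 and Gls2 at -0.009. Their median was -0.01, with summed signals of 11539 and 10394. Kupffer cell markers had 2 of 4 higher, with sums of 792.2 and 668.8. Stellate cell markers were lower in all 3 measured of 7, with sums of 136.8 and 81.9, while Acta2, Col1a1, Des and Pdgfrb were below the floor. Of the 3 measured, Col1a2 went from 29.9 to 13.2, below the high-fat floor, and its second probe set was at 18.7 and 18.1 (0.07). Endothelial markers were lower in both measured genes, with sums of 280.5 and 239.6, and of the cholangiocyte genes Epcam was at 38 and 31.2 (-0.17) while Krt19, Krt7 and Spp1 were below the floor. The part of these differences in the P450 values was not tested.

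Across processing settings most members kept their sign. All 7 lower genes and 16 of the 22 higher ones kept their sign in all the settings that measured them. Changes of centring or floor mostly shift all ratios by a common amount, so a kept sign is a weak check. The 6 that did not were Cyp2a1, Cyp2c11, Cyp2c23, Cyp2f4, Cyp4f1 and Cyp4f6, with main ratios between 0.005 and 0.10. Cyp2c12 was between -0.80 and -0.62. Cyp2c22 was between 0.26 and 0.42, and Cyp2c6v1 between 0.23 and 0.41.

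**Figure D4:**
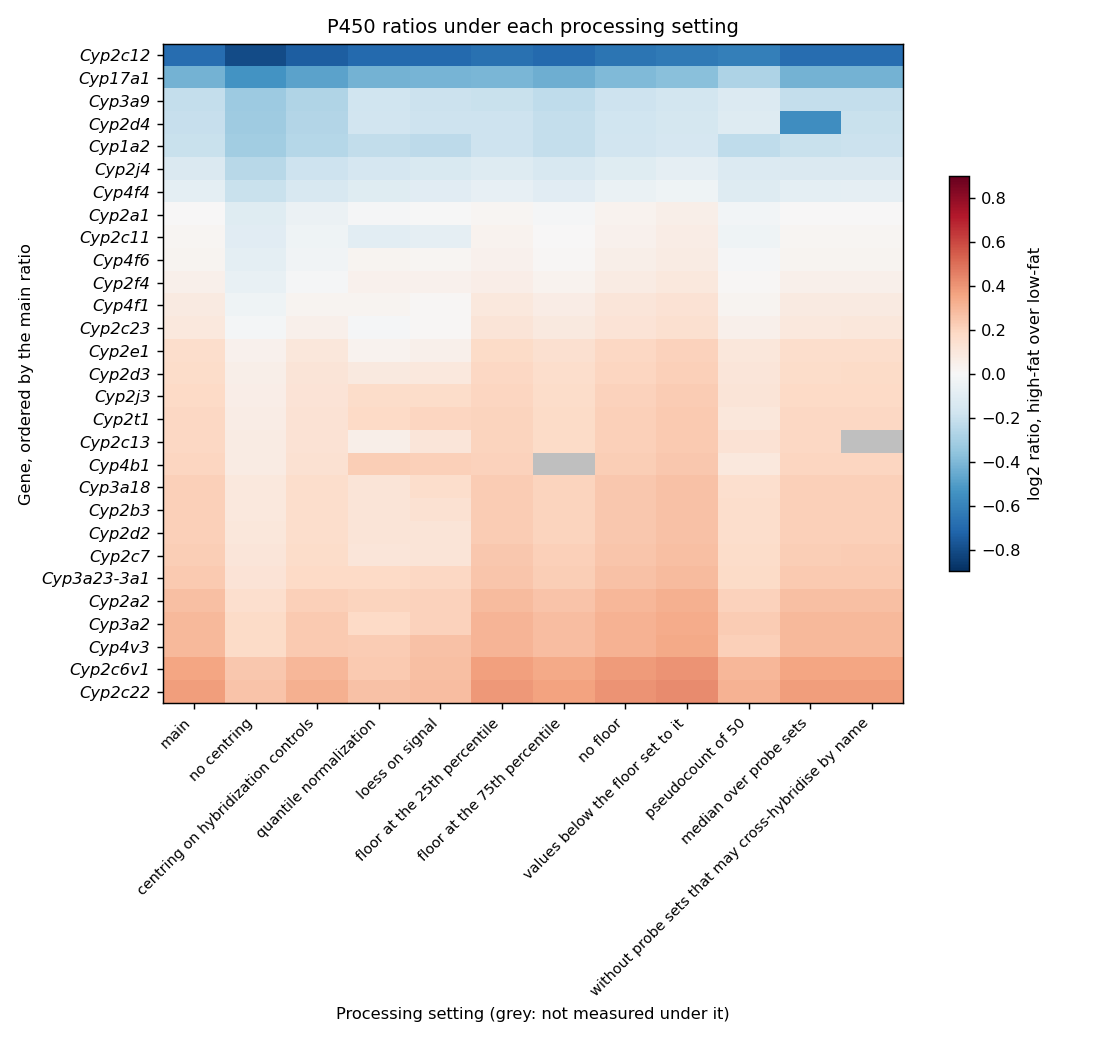
High-fat over low-fat log2 ratio (colour) of each measured P450 gene (rows, ordered by the main ratio) under the main setting and 11 alternatives (columns); grey cells are genes not measured under a setting. Cyp2c12 is blue in every column, between -0.80 and -0.62, and the sign of 6 genes near 0 differs between columns.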

How the data were processed

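Total RNA of 2 liver samples, 1 per diet, had been hybridised to arrays with Affymetrix probe set names. The deposited table gives 1 signal intensity per probe set on a linear scale, and how the authors computed and scaled the intensities was not stated in what was used here; no detection calls came with it. Probe sets were named from the platform annotation, checked through Entrez identifiers against the RefSeq table of GRCr8, where no member symbol differed. Control probe sets were left out. No pseudocount was added before log2. A probe set's robust SD is 1.4826 times the median absolute deviation of the log2 ratio in its signal bin, 1 of 10 equal bins of measured probe sets. Older list symbols were matched through synonyms. Members and lists were chosen with earlier results of these data known. All measured members are named; partner genes are named at a log2 ratio of 0.5 or more in size, with Por, Nr1i2, Nr1i3, Ahr and Alas1 in any case, and the other partner genes named were chosen after their values were seen. The listed female-dominant gene Cyp2c40 is a RefSeq synonym of Cyp2c12. The 1.5-fold counts were also added after values were seen. With 1 array per diet no test was run; the number of arrays limits the precision. The steps were tested on simulated data with planted changes larger than any member's and the same noise level at all signals. That test does not cover the small differences described here. The 11 alternatives were no centring, centring on hybridization controls, quantile normalization, a pseudocount of 50, loess, 4 other treatments of the floor, the median over probe sets, and removal of probe sets that may cross-hybridise by name. The software was pandas 2.3.3, statsmodels 0.14.6, scipy 1.17.1 and numpy 2.4.6 under Python 3.11.15.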

Additional observations from a re-analysis of the deposited data

Results flagged for a closer look

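A probe set that the annotation lists with several symbols of subfamily CYP2A, and that therefore entered no count of members, had a signal of 1390.9 on the high-fat array against 1190.3 on the low-fat control array. Its centred log2 ratio of 0.34 was 1.71 robust SD above the median of its signal bin, beside 0.27 for Cyp2a2 and 0.005 for Cyp2a1 on their own probe sets. In the other direction, a probe set with several CYP2B symbols lay 2.74 robust SD below the median of its bin.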

How the results depend on the processing

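The P450 median stayed above 0 under 10 of the 11 alternatives, from 0.05 without centring to 0.17. It was 0 with values set to the floor, where the 16 genes below the floor also count and all sit at 0. The interval across members included 0 under 8 of the 11. Among these were no centring and centring on hybridization controls, where the median over all genes was -0.12 and -0.06. The P450 median was 0.17 without Cyp2c12. The number of lower members was 13 without centring, 11 with centring on hybridization controls, 12 of 35 with the floor at the 25th percentile and 17 of 45 with no floor. The 2-fold counts moved only where more dim genes were let in: 1 lower with the floor at the 25th percentile, and 2 higher and 5 lower with no floor. At 1.5-fold these were 3 lower with the lower floor, and 4 higher and 8 lower with no floor. The medians of families CYP2, CYP3 and CYP4 and of the partner lists stayed within the spread of their members, a wide range and so a weak check. Several medians above 0 in the main setting were below it without centring, where all genes had -0.12. These were CYP4 (-0.04), electron donors (-0.11), sex-dependent genes (-0.08), and targets of Ahr (-0.04) and of Nr1i2 and Nr1i3 (-0.10). The heme supply median was 0.02 with values set to the floor. Only Cyp2d4 among the members moved by more than the robust SD of its signal bin, to -0.56 with the median over probe sets. No paired analysis was possible because each diet has 1 array and the labels carry no replicate numbers. Signal over background limits the 16 genes below the floor, for which no ratio is reported.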

Other observations

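Beside the members, 6 probe sets were listed with several P450 symbols, and 3 of them were measured. One of them, listed with the phenobarbital-inducible genes of subfamily CYP2B, went from 192.7 with the low-fat diet to 118 with the high-fat diet, a centred log2 ratio of -0.59, beside 0.21 for Cyp2b3. The probe set of subfamily CYP2D was at 1084.1 and 1052 (0.07). The other 3, of the adrenal subfamily CYP11B, were below the floor on average.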
